A study of Homo sapiens with 16 samples.

Results

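The small ubiquitin-like modifier (SUMO) machinery was read from 7 genes in the RNA-seq of 2 myeloma lines: SAE1 and UBA2, SUMO2 and SUMO3, PIAS1 and PIAS4, and RANBP2. They were taken by symbol from the count table, which holds 23354 genes, and all 7 were among the 14215 genes that passed the filter on low counts. MM1S is a glucocorticoid-sensitive human myeloma line and MM1R its resistant counterpart. Both were treated for 48 h with vehicle (Veh), with TAK-981 (TAK), with the glucocorticoid dexamethasone (Dex) or with the 2 drugs at once (combo). The dose was 1 μM for Dex, and that of TAK-981 was 0.1 μM. Each of these 8 groups has 2 libraries, which makes 16. The labels call the libraries duplicates and do not say whether they came from separate cultures, so the p-values measure only the spread between these libraries. TAK-981 is an inhibitor of the SUMO-activating enzyme.

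SUMO proteins are attached to lysines of other proteins by a short enzyme cascade. SAE1 and UBA2 (also called SAE2) form the heterodimeric activating enzyme (E1), with the catalytic cysteine on UBA2. Activated SUMO then passes on to targets, often with the help of a ligase (E3) such as PIAS1, PIAS4 or the nuclear pore protein RANBP2. SUMO2 and SUMO3 are near-identical modifiers that can form chains, and most free SUMO of human cells belongs to this pair.

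Total counts per library ran from 15707587 to 24796539, and the members were read from 549 counts (SUMO2) to 8011 counts (RANBP2) per library. Levels are counts per 1000000 counts after TMM scaling (CPM). They are shares of a library, so a smaller share of the RNA and fewer transcripts per cell cannot be told apart. All 8 plasma cell markers looked at, among them SDC1 and CD38, were above 1 CPM in every library, with summed levels of 3370 to 4754 CPM in MM1S and 5410 to 6135 CPM in MM1R. The 4 myeloid markers summed to 0.0436 to 0.543 CPM over the 16 libraries, with S100A8 at 0 counts in all of them, and the T cell marker CD3D was also at 0. The mature B cell markers summed to 22.9 to 57.3 CPM, with 1 of 4 above 1 CPM in every library and the other 3 under it. The T cell, stromal and erythroid markers summed to 0.454 to 12.96 CPM per list, with 1 erythroid marker of 3 above 1 CPM in every library. The replicate libraries of the MM1S TAK and MM1S Dex groups differed most from each other, with chi-square values of 21.7 and 19.5 per degree of freedom over genes, against 2.11 to 9.32 in the other 6 groups.

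TAK-981 moved both subunit genes of the SUMO E1 down and SUMO3 up in both lines. After TAK-981 alone, 5 of the 7 members passed the test in MM1S and 4 of 7 in MM1R, where 49% and 53.4% of all genes tested did. When TAK-981 was added to Dex (combo against Dex, which shares no library with TAK-981 against vehicle), 5 of 7 members passed in MM1S and 4 of 7 in MM1R, against 47.6% and 48.4% of all genes. With shares of this size among all genes, the counts of members do not set the pathway apart. The direction and size of each member are therefore given below. A gene was called at an adjusted p under 0.05 (edgeR quasi-likelihood test, Benjamini-Hochberg over all genes tested).

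SAE1 lies on chromosome 19 from 47634080 to 47713893 (plus strand, hg19). In vehicle-treated MM1S cells it was at 109 and 107 CPM, and after TAK-981 at 56.4 and 58.8 CPM. The MM1R libraries held 143 and 151 CPM with vehicle and 76.0 and 79.0 CPM with TAK-981. Both treated libraries thus lay below both vehicle libraries in each line, and SAE1 fell to 53.4% of the vehicle level in MM1S cells (log2 fold change −0.90, standard error 0.064, adjusted p = 1.59e-09) and to 52.7% in MM1R cells (−0.93, standard error 0.063, adjusted p = 1.13e-09). The same loss was measured on top of Dex. MM1S Dex libraries were at 76.2 and 81.4 CPM and MM1S combo libraries at 44.7 and 45.25 CPM, a log2 fold change of −0.81 (adjusted p = 1.47e-08). For MM1R, 137 and 152 CPM with Dex became 78.9 and 81.5 CPM in the combo (−0.85, adjusted p = 3.38e-09). Of all genes tested, 6.09% in MM1S and 3.58% in MM1R had a lower log2 fold change after TAK-981 alone than SAE1. The other 2 genes that moved in both lines were less extreme. These shares were 14.1% and 11% for UBA2, and 88.1% and 78.5% for SUMO3, which rose.

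UBA2, the catalytic partner, is on the same chromosome and spans 34919268 to 34960798 (plus strand, hg19). It stood at 181 and 171 CPM in MM1S Veh and at 131 and 117 CPM in MM1S TAK. In MM1R it went from 188 and 187 CPM to 125 and 127 CPM. The groups did not overlap in either line, and UBA2 fell to 70.4% of vehicle in MM1S cells (log2 fold change −0.51, standard error 0.073, adjusted p = 1.25e-05) and to 67.3% in MM1R cells (−0.57, standard error 0.072, adjusted p = 2.88e-06). Added to Dex, TAK-981 lowered it from 137 and 129.8 to 115 and 99.0 CPM in MM1S cells (−0.32, adjusted p = 0.0015) and from 173 and 184 to 129 and 134 CPM in MM1R cells (−0.44, adjusted p = 5.89e-05). UBA2 was lowered less than SAE1 in each of the 4 comparisons with and without TAK-981, to 67.3 to 80.01% of the reference level against 52.7 to 57.1%.

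RefSeq promoter sequences (250 bases before to 50 after the start of transcription, build GRCh38.p14) matched 6 of the 7 members, all but SAE1. Those of UBA2 and SUMO3 are shown because these genes moved in opposite directions after TAK-981 in both lines, and that of SUMO2 because it is the closest relative of SUMO3. Each is written 5′ to 3′ on the strand of its gene, with capitals marking matches on either strand to the motifs searched.
UBA2 (chr19:34428131-34428430, plus strand): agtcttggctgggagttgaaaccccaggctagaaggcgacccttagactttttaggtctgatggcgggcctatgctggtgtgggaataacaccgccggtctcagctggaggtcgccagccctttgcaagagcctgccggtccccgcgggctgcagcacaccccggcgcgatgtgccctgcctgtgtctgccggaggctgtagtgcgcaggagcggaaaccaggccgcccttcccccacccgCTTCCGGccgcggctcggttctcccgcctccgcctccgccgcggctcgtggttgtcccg
SUMO3 (chr21:44818013-44818312, minus strand): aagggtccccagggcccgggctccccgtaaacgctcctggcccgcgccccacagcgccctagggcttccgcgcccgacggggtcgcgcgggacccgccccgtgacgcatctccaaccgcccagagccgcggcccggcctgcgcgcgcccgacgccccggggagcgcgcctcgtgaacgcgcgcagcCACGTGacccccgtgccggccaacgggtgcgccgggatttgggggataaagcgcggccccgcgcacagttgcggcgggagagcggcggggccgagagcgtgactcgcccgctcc
SUMO2 (chr17:75182910-75183209, minus strand): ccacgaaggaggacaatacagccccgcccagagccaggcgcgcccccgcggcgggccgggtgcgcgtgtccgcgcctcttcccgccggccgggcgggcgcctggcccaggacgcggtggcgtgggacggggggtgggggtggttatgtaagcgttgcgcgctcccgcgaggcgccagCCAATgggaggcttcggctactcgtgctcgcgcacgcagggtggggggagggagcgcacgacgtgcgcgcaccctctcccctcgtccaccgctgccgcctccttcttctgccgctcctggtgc
The capitals in UBA2 are a match to the ETS site CCGGAAG, which 10.3% of all 35116 promoters of the table hold. SUMO3 holds the E-box CACGTG, the site bound by MYC and related factors, as do 7.26% of all promoters, PIAS4 among them. SUMO2 holds a CCAAT box (CCAAT, 34.6% of all promoters), and PIAS4 holds it as well. None of the 6 members had a match to the E2F sites TTTCCCGC or TTTGGCGC (1.63% and 0.652% of all promoters). The full glucocorticoid response element, AGAACA and TGTTCT set 3 bases apart, was in none of them either, and in 0.00285% of all promoters. The same held for the interferon-stimulated response element, GAAA and GAAA set 2 bases apart (3.57% of all promoters). The 3 sequences are rich in G and C, at 67.7% in UBA2, 75.3% in SUMO2 and 78.3% in SUMO3, where the median of all promoters was 58.7%.

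SUMO3 (chromosome 21, 46225532 to 46238044, minus strand, hg19) moved against the E1 genes. MM1S libraries went from 114 and 112 CPM with vehicle to 174.5 and 185 CPM with TAK-981. MM1R libraries went from 121.5 and 119.7 CPM to 169 and 162 CPM. All treated libraries lay above all vehicle libraries of their line, with log2 fold changes of 0.67 in MM1S cells (standard error 0.062, adjusted p = 5.13e-08) and 0.46 in MM1R cells (standard error 0.061, adjusted p = 6.23e-06). On top of Dex, SUMO3 rose from 96.1 and 102 to 146 and 153 CPM in MM1S cells (0.59, adjusted p = 3.58e-07). In MM1R it rose from 112 and 121 to 172 and 164 CPM (0.53, adjusted p = 1.14e-06). The rise in these 4 comparisons was to between 137% and 159% of the reference.

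SUMO2 (chromosome 17, 73163825 to 73179098, minus strand, hg19) changed less than SUMO3, and it passed the test in MM1S alone. Its MM1S levels were 36.3 and 30.25 CPM with vehicle, 40.7 and 38.2 CPM with TAK-981, 29.5 and 27.7 CPM with Dex and 39.45 and 36.2 CPM in the combo. TAK-981 raised it by a log2 fold change of 0.24 against vehicle (standard error 0.086, adjusted p = 0.0255) and by 0.40 against Dex (standard error 0.089, adjusted p = 0.00114). The first of these calls was lost with library size only, with DESeq2, when only the compared groups were fitted, and without MM1S Veh replicate 2 (0.12) or MM1S TAK replicate 1 (0.20), and without MM1S Veh replicate 1 the value was 0.38. In MM1R all 8 libraries lay between 36.2 and 40.3 CPM, and the change after TAK-981 was 0.05 (95% interval −0.12 to 0.23, adjusted p = 0.621). The difference between the lines in this response was −0.19 (standard error 0.121, adjusted p = 0.374) and was not called. It was −0.33 without MM1S Veh replicate 1 and −0.066 without MM1S Veh replicate 2.

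**Figure D1:**
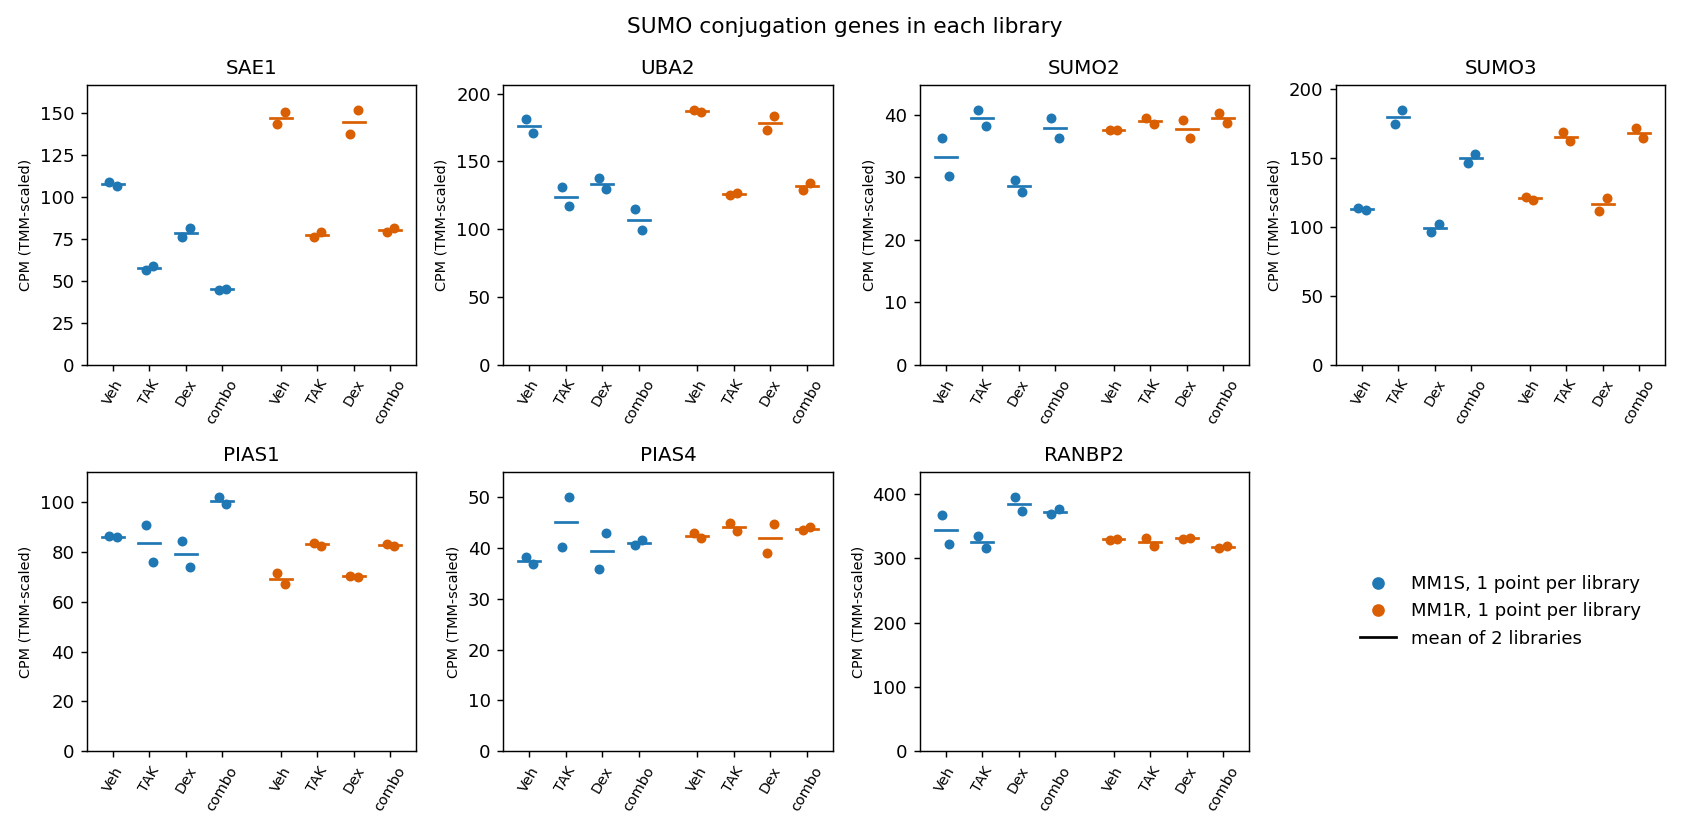
Level of each of the 7 genes in CPM after TMM scaling (vertical axes from 0) in the 16 libraries, by line and treatment (horizontal axes), with 1 point per library and a bar at the mean of 2. SAE1 and UBA2 sit lower and SUMO3 higher in the TAK and combo libraries of both lines, with SAE1 at 56.4 and 58.8 CPM in MM1S TAK against 109 and 107 CPM in MM1S Veh.

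The ligase genes gave smaller and less even changes. PIAS1 and PIAS4 belong to a family first described as inhibitors of activated STAT proteins. PIAS1 (chromosome 15, 68346572 to 68480404, plus strand, hg19) rose after TAK-981 in MM1R, from 71.4 and 67.2 CPM to 83.6 and 82.4 CPM (log2 fold change 0.26, standard error 0.076, adjusted p = 0.00775). In MM1S it was at 86.2 and 86.0 CPM with vehicle and at 90.8 and 76.0 CPM with TAK-981, so the treated libraries fell on both sides of the vehicle pair (−0.05, 95% interval −0.21 to 0.11, adjusted p = 0.647). Without MM1S TAK replicate 2, the lower of these, the value was 0.07. Added to Dex, TAK-981 raised PIAS1 in both lines. The MM1S levels were 84.1 and 73.9 CPM with Dex and 102 and 99.1 CPM in the combo (0.35, adjusted p = 0.00111), and those of MM1R were 70.5 and 70.0 CPM and 82.9 and 82.3 CPM (0.23, adjusted p = 0.0165). The MM1R calls of PIAS1 rested on few libraries. The one against vehicle was lost without MM1R Veh replicate 2 (0.22) or MM1R TAK replicate 1 (0.25), and the one against Dex without any 1 of its 4 libraries (0.23 to 0.24).

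PIAS4 (chromosome 19, 4007749 to 4038067, plus strand, hg19) was called once. MM1S Veh libraries were at 38.15 and 36.9 CPM and MM1S TAK libraries at 40.2 and 50.03 CPM, a log2 fold change of 0.27 (standard error 0.099, adjusted p = 0.0329). Most of this came from MM1S TAK replicate 2, without which the value was 0.10 (adjusted p = 0.45), against 0.41 without MM1S TAK replicate 1, and the call was also lost without either vehicle library, with library size only, with DESeq2 and when only the compared groups were fitted. In MM1R PIAS4 was at 43.0 and 41.9 CPM with vehicle and 44.9 and 43.3 CPM with TAK-981 (0.06, adjusted p = 0.657). Against Dex the combo gave 0.06 in both lines, with adjusted p of 0.673 and 0.61.

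RANBP2 (chromosome 2, 109335937 to 109402267, plus strand, hg19) encodes a large protein of the cytoplasmic filaments of the nuclear pore, where it binds SUMO-modified RANGAP1. It was at 367 and 322 CPM in MM1S Veh and 334 and 316 CPM in MM1S TAK, and at 328 and 330.3 CPM in MM1R Veh and 331 and 319 CPM in MM1R TAK. The groups overlapped in both lines, and the log2 fold changes were −0.08 (95% interval −0.21 to 0.05, adjusted p = 0.282) and −0.02 (−0.15 to 0.11, adjusted p = 0.824). The intervals put any change in the RANBP2 share after TAK-981 alone within about 0.21 on the log2 scale. The RGPD genes are near-identical copies of RANBP2 that could take some of its reads. Of the 7 copies listed, 6 were in the table, with at most 24 counts in any library against at least 5945 for RANBP2. RGPD5 and RGPD6 were at 0 in every library. How reads that match both RANBP2 and a copy were counted is not given in the sources used here. Such reads may have been left out of both, so these counts cannot show how many RANBP2 lost.

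**Figure D2:**
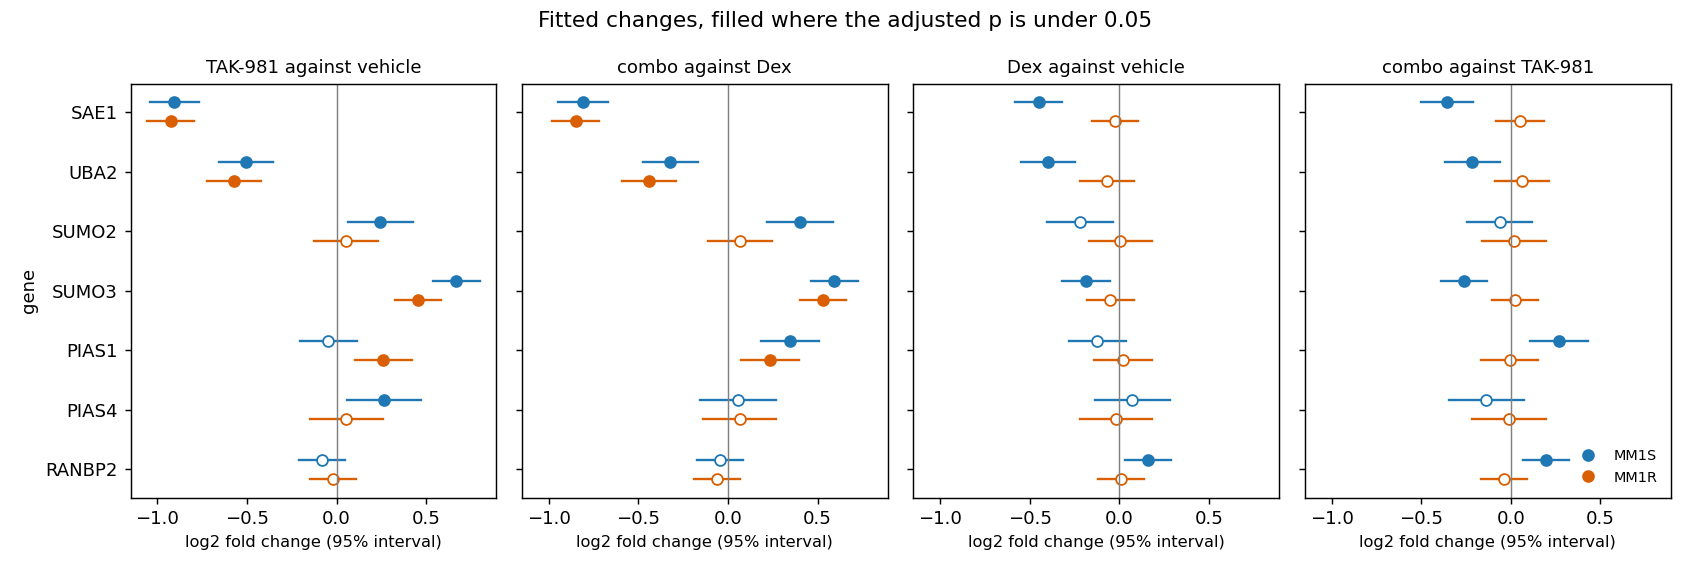
Fitted log2 fold change (horizontal axes) of each of the 7 genes (vertical axis) with its 95% interval, in 4 comparisons and both lines, filled where the adjusted p was under 0.05. After TAK-981 alone SAE1 lies at −0.90 in MM1S and −0.93 in MM1R and SUMO3 at 0.67 and 0.46, and the MM1R points of both Dex comparisons are unfilled.

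The balance between partners was also compared within each library, where scaling cancels out. The ratios come from the same libraries as the changes of the single genes, so they describe those changes on another scale and are not independent evidence for them. The UBA2 to SAE1 count ratio was 1.66 and 1.60 in MM1S Veh, 2.32 and 1.99 in MM1S TAK, 1.80 and 1.59 in MM1S Dex, and 2.57 and 2.19 in the MM1S combo. In MM1R the ratio was lower throughout, at 1.31 and 1.24 with vehicle, 1.65 and 1.60 with TAK-981, 1.26 and 1.21 with Dex and 1.64 and 1.65 in the combo. Libraries with TAK-981 lay above their counterparts without it in every one of the 4 pairs of groups, with a mean difference of 0.41 in the log2 ratio. An exact two-sided permutation test within line and Dex status gave p = 0.00154 (adjusted p = 0.00231 over 3 ratios), the smallest p that its 1296 arrangements allow. The SUMO2 to SUMO3 ratio moved down, by −0.37 in log2 (exact permutation test, p = 0.00154, adjusted p = 0.00231). It was 0.319 and 0.270 in MM1S Veh against 0.233 and 0.207 in MM1S TAK, and 0.309 and 0.314 in MM1R Veh against 0.235 and 0.237 in MM1R TAK. No difference was called for PIAS1 to PIAS4, whose log2 ratio moved by 0.09 (exact permutation test, p = 0.457, adjusted p = 0.457). Without MM1S TAK replicate 2 this was 0.16, with an adjusted p of 0.0139 from the same exact test.

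**Figure D3:**
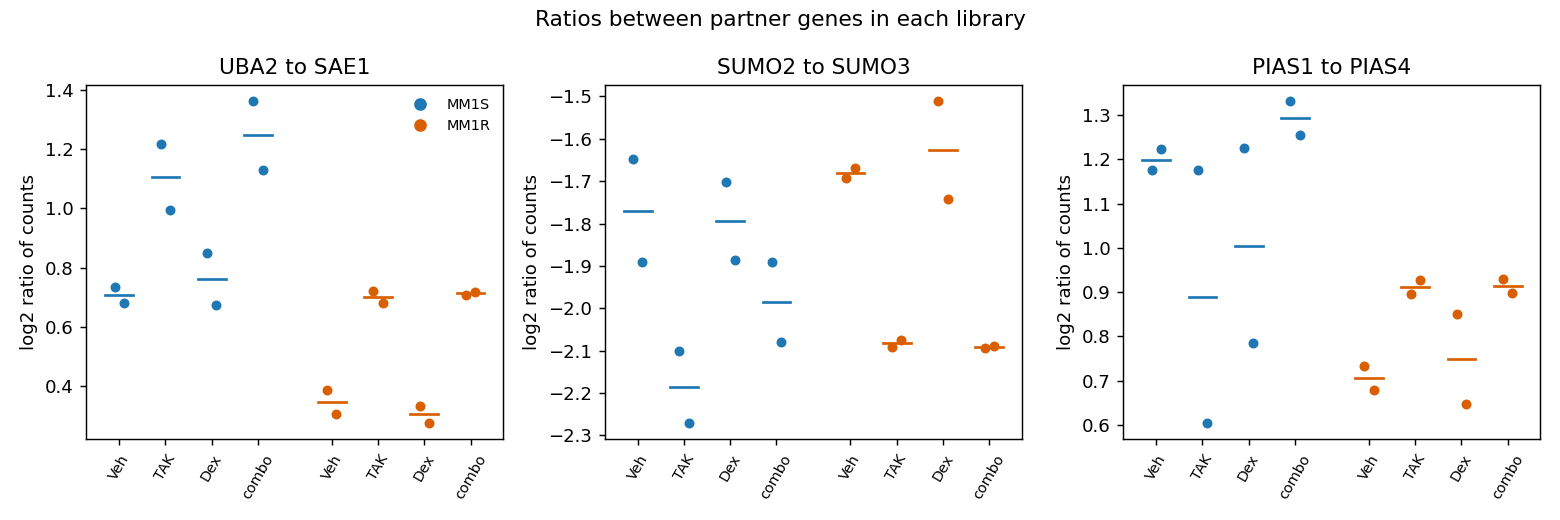
Log2 ratio of counts between partner genes (vertical axes) in the 16 libraries by line and treatment (horizontal axes), with 1 point per library and a bar at the mean of 2. The UBA2 to SAE1 ratio is higher and the SUMO2 to SUMO3 ratio lower in libraries with TAK-981, with means of 1.11 against 0.71 and of −2.19 against −1.77 in MM1S TAK and MM1S Veh.

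Levels of different genes were compared per kb of the gene length given in the table. How these lengths were defined is not given in the sources used here, and the order between genes rests on them. It also rests on how reads that match more than 1 place were counted, which is not given either. The levels of different genes, such as SUMO2 and SUMO3, may therefore differ from those of their transcripts. In MM1S Veh, SUMO3 (58.9 ± 0.60 CPM per kb, SD, n = 2) and UBA2 (58.8 ± 2.34) led and their libraries overlapped. They were followed by SAE1 (39.0 ± 0.53), PIAS1 (37.3 ± 0.047), SUMO2 (31.3 ± 4.05), RANBP2 (29.5 ± 2.72) and PIAS4 (21.7 ± 0.53), with overlap between SUMO2 and RANBP2. After TAK-981 the order in MM1S ran from SUMO3 (93.7 ± 3.70 CPM per kb) over UBA2, SUMO2, PIAS1, RANBP2 and PIAS4 down to SAE1 (20.8 ± 0.63), with overlaps between SUMO2 and PIAS1 and between RANBP2 and PIAS4. SAE1 thus moved from the third place to the last. In MM1R Veh it was also in the third place, at 53.2 ± 1.91 CPM per kb (SD, n = 2), behind SUMO3 at 62.9 ± 0.66 and UBA2 at 62.5 ± 0.27, which overlapped. After TAK-981 SAE1 was at 28.0 ± 0.75 CPM per kb in MM1R, overlapping with RANBP2 at 27.8 ± 0.72 and above PIAS4 at 25.6 ± 0.67.

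**Figure D4:**
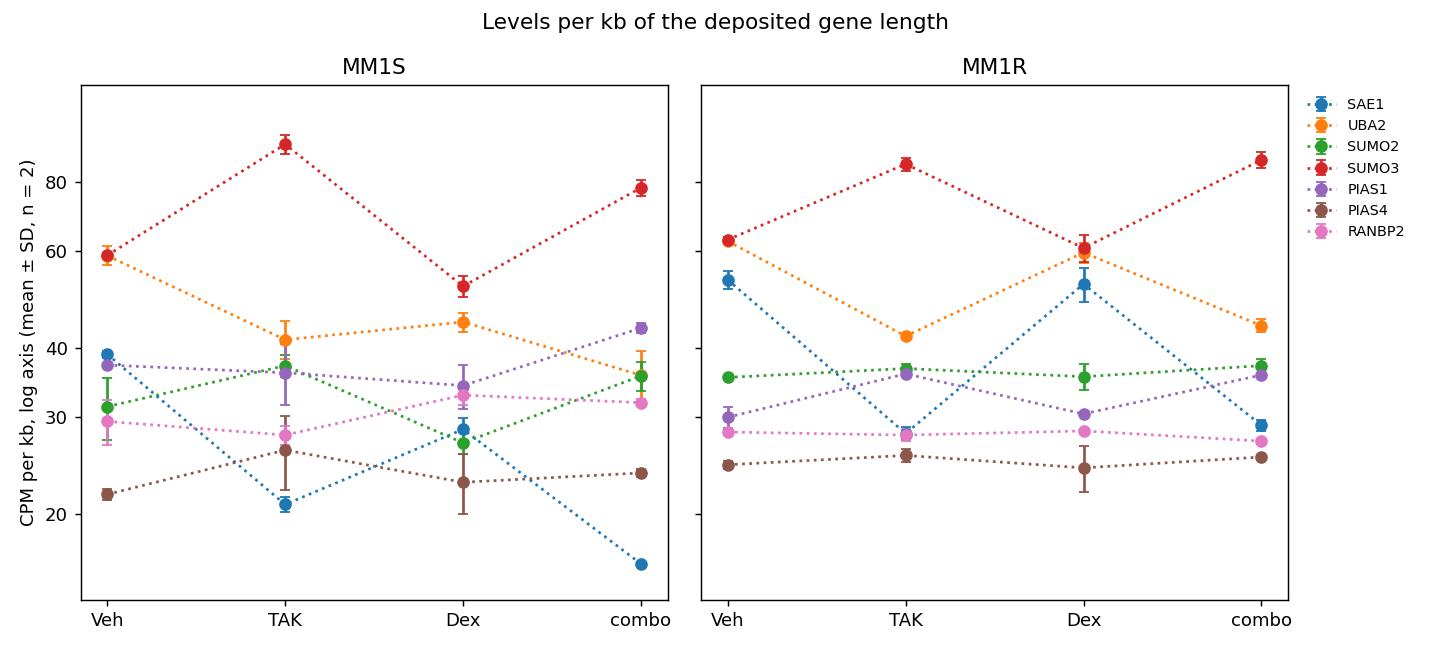
Level of the 7 genes in CPM per kb (vertical log axis, mean ± SD, n = 2) by treatment (horizontal axis) in MM1S and MM1R; dotted lines only join the points of a gene. SAE1 falls from 39.0 to 20.8 CPM per kb between MM1S Veh and MM1S TAK while SUMO3 goes from 58.9 to 93.7.

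Dex on its own lowered both E1 genes in the sensitive line. In MM1S, 4 of the 7 members passed the test of Dex against vehicle, where 42.3% of all genes did. SAE1 fell to 73.1% of vehicle (log2 fold change −0.45, standard error 0.063, adjusted p = 1.28e-05) and UBA2 to 75.8% (−0.40, standard error 0.072, adjusted p = 0.000204), both with no overlap between the groups. SUMO3 fell by 0.19 on the log2 scale (adjusted p = 0.0225) and RANBP2 rose by 0.16 (adjusted p = 0.0447). SUMO2, at 29.5 and 27.7 CPM against 36.3 and 30.25 CPM, had a value of −0.22 and was outside the threshold (adjusted p = 0.0531). This was −0.081 without MM1S Veh replicate 1 (adjusted p = 0.586) and −0.34 without MM1S Veh replicate 2 (adjusted p = 0.0107). The SUMO3 call was lost when only the compared groups were fitted. It was also lost without either vehicle library or without MM1S Dex replicate 1 (−0.20 to −0.14). The RANBP2 value was 0.26 without MM1S Veh replicate 1, and its call was lost without MM1S Veh replicate 2 (0.07) or either Dex library (0.12 and 0.19), and, at values of 0.13 to 0.16, with RLE scaling, library size only, no filter, DESeq2 or only the compared groups.

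In MM1R no member passed the test of Dex against vehicle. Neither did any other gene (0% of all genes tested by edgeR, 395 genes at an unadjusted p under 0.05; DESeq2 also called 0, with 159 at an unadjusted p under 0.05). SAE1 was at 137 and 152 CPM with Dex against 143 and 151 CPM with vehicle, a log2 fold change of −0.03 (95% interval −0.15 to 0.10), and UBA2 changed by −0.07 (−0.22 to 0.08). The difference between the lines in the Dex response was called for 2 members, where 28.1% of all genes were called. It was 0.43 for SAE1 (standard error 0.088, adjusted p = 0.00121) and 0.33 for UBA2 (standard error 0.101, adjusted p = 0.0202), both as the MM1R change minus the MM1S change. For UBA2 the call was lost without MM1S Veh replicate 1 (0.29), MM1S Dex replicate 2 (0.30), MM1R Veh replicate 1 (0.34), MM1R Veh replicate 2 (0.33) or MM1R Dex replicate 2 (0.29). As a check of the treatment, all 5 genes of a list of known Dex targets rose with Dex in MM1S, with a median log2 fold change of 3.71 (0.291 to 4.92). In MM1R 0 of these 5 genes were called, with a median of 0.0156.

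Adding Dex to TAK-981 in MM1S moved 5 of the 7 members past the threshold, where 35.1% of all genes passed. SAE1 fell by a further 0.36 on the log2 scale (adjusted p = 0.000442), UBA2 by 0.21 (adjusted p = 0.0297) and SUMO3 by 0.26 (adjusted p = 0.00268), while PIAS1 rose by 0.27 (adjusted p = 0.00978) and RANBP2 by 0.20 (adjusted p = 0.0184). In a fit of only the 4 libraries compared, 1 member passed, SAE1. The UBA2 call was lost without MM1S TAK replicate 1 (−0.13) or MM1S combo replicate 2 (−0.11), with −0.33 without MM1S combo replicate 1, and the PIAS1 call without MM1S TAK replicate 2 (0.15) or MM1S combo replicate 1 (0.25). RANBP2 lost its call without MM1S TAK replicate 2 (0.16) or either combo library (0.21 and 0.18). In MM1R the same comparison called no member and no other gene (0% of all genes tested by edgeR, 214 genes at an unadjusted p under 0.05; DESeq2 also called 0, with 50 at an unadjusted p under 0.05).

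Against vehicle, the combo left SAE1 at 41.7% in MM1S cells (log2 fold change −1.26, standard error 0.066, adjusted p = 7.1e-12) and at 54.5% in MM1R cells (−0.88, standard error 0.062, adjusted p = 2.25e-09). UBA2 was left at 60.7% and 70.3%. SUMO3 stayed above vehicle, by 0.41 in MM1S and 0.48 in MM1R on the log2 scale, and PIAS1 rose by 0.22 (adjusted p = 0.0166) and 0.25 (adjusted p = 0.0094). These were the 4 members called in each line, where 60.3% and 51.5% of all genes were. The PIAS1 call was lost without either vehicle library or MM1S combo replicate 1 in MM1S cells (0.20 to 0.22), and without MM1R Veh replicate 2 (0.21) or MM1R combo replicate 1 (0.25) in MM1R.

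Whether the 2 drugs acted on a member by more or less than the sum of their log2 changes was tested as an interaction. In MM1S it was called for 1 of 7 members, where 14.9% of all genes were called. PIAS1 responded to TAK-981 more in the presence of Dex than in its absence, by 0.39 on the log2 scale (standard error 0.108, adjusted p = 0.0201). This call was lost when only its 4 groups were fitted and without MM1S Veh replicate 1 (0.39), MM1S Veh replicate 2 (0.40), MM1S TAK replicate 2 (0.27), MM1S Dex replicate 2 (0.31) or MM1S combo replicate 1 (0.37). For SAE1 the interaction was 0.10 (95% interval −0.10 to 0.29, adjusted p = 0.532) and for UBA2 0.18 (−0.03 to 0.40, adjusted p = 0.245), and neither was called. In MM1R no member and no other gene was called (0% of all genes tested by edgeR, 400 genes at an unadjusted p under 0.05; DESeq2 also called 0, with 160 at an unadjusted p under 0.05).

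The lines differed in SAE1 and PIAS1 before treatment. With vehicle, SAE1 was 1.37-fold higher in MM1R than in MM1S cells (log2 fold change 0.45, standard error 0.061, adjusted p = 1.09e-05), and PIAS1 was at 80.4% of the MM1S level (−0.31, standard error 0.076, adjusted p = 0.00232). UBA2 differed by 0.09 (95% interval −0.06 to 0.24, adjusted p = 0.335), and SUMO2 by 0.17 (adjusted p = 0.102), which became 0.31 and was called without MM1S Veh replicate 1 and became 0.049 without MM1S Veh replicate 2. These 2 calls among 7 members compare with 48.2% of all genes called. No member was called by edgeR for a line difference in the TAK-981 response (4.16% of all genes were). Still, PIAS1 (0.31, adjusted p = 0.113) and SUMO3 (−0.21, adjusted p = 0.17) had unadjusted p of 0.0106 and 0.0247 in that test. The interval of the difference was −0.21 to 0.17 for SAE1 and −0.28 to 0.15 for UBA2. Without MM1S TAK replicate 1 the PIAS1 difference was 0.44 and was called, and without MM1S TAK replicate 2 it was 0.18 (adjusted p = 0.355).

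The rest of the pathway was described from lists of related genes. Their counts after TAK-981 are read against all genes tested, of which 49% in MM1S and 53.4% in MM1R were called, 25.2% and 25.8% as higher and 23.7% and 27.6% as lower. Among the 11 other conjugation genes, 3 rose and 1 fell in MM1S and 2 rose and 2 fell in MM1R, so 4 of 11 were called in each line, a smaller share than of all genes. Their median log2 fold changes were 0.10 and 0.16, against 0.04 and 0.0043 over all genes tested. PIAS2 rose by 0.30 in MM1S and 0.56 in MM1R on the log2 scale, and PIAS3 by 0.36 and 0.21. RANGAP1, the SUMO-modified partner of RANBP2 at the pore, fell by 0.54 in MM1S cells (adjusted p = 0.00051) and by 0.73 in MM1R cells (adjusted p = 2.19e-05). Its MM1S value was −0.36 without MM1S TAK replicate 1. Without MM1S TAK replicate 1, 3 of these genes fell in MM1S. In MM1R 1 rose without MM1R Veh replicate 2, and 1 fell without any 1 of the 4 libraries. The call of PIAS2 in MM1S was lost without MM1S Veh replicate 2 (0.24) or MM1S TAK replicate 1 (0.18), and that of PIAS3 in MM1R without MM1R Veh replicate 2 (0.13) or MM1R TAK replicate 1 (0.16).

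A further list held 12 genes: SUMO proteases, members of their families (SENP8 among them) and SUMO-targeted ubiquitin ligases. Of these, 1 rose and 4 fell in MM1S, and 3 rose and 5 fell in MM1R, against 49% and 53.4% of all genes called. The SUMO protease SENP7, which acts on SUMO2 and SUMO3 chains, rose by 0.34 and 0.68 on the log2 scale, and SENP1 fell by 0.35 and 0.32. DESI2 fell by 0.44 and 0.36, with −0.27 in MM1S without MM1S TAK replicate 2. The SENP7 call in MM1S was lost without either vehicle library (0.38 and 0.29) or MM1S TAK replicate 1 (0.16), which left 0 genes of the list higher, and without MM1S TAK replicate 2 there were 2.

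The activating enzymes of other ubiquitin-like modifiers were called at about the share of all genes (49% in MM1S and 53.4% in MM1R). Of 8 such E1 genes, 1 rose and 3 fell in each line, and 2 rose in MM1S without MM1S Veh replicate 2 or MM1S TAK replicate 2. NAE1, a subunit of the NEDD8 E1 and the counterpart of SAE1 in that pathway, fell by 0.63 in MM1S cells (adjusted p = 1.17e-06) and by 0.62 in MM1R cells (adjusted p = 9.12e-07). UBA7, the E1 of the interferon-induced modifier ISG15, rose by 1.09 (adjusted p = 4.66e-08) and 1.25 (adjusted p = 5.72e-08), its conjugating enzyme UBE2L6 by 0.65 and 0.97, and ISG15 itself by 3.65 and 4.42. Among 13 conjugating enzyme (E2) genes of other modifiers, 1 rose and 7 fell in MM1S and 2 rose and 9 fell in MM1R, where 23.7% and 27.6% of all genes fell. They were led by UBE2T (−1.20 and −0.80) and UBE2C (−1.03 and −0.89), a partner of the anaphase-promoting complex. The count of E2 genes that fell in MM1S was 4 without MM1S Veh replicate 1 or without MM1S TAK replicate 2, and 1 rose in MM1R without MM1R TAK replicate 2 or either vehicle library. Of the 10 modifier genes, ISG15 rose in both lines, 1 fell in MM1S cells (UFM1, −0.28) and 3 fell in MM1R, among them FAU (−0.34). These shares of called genes are below those of all genes. The UFM1 value was −0.48 without MM1S TAK replicate 1 and −0.11 without MM1S TAK replicate 2. No modifier gene fell in MM1S without MM1S TAK replicate 2 or either vehicle library, and 2 rose without MM1S TAK replicate 1. In MM1R 1 fell without either vehicle library and 0 without MM1R TAK replicate 1.

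Of 15 nuclear pore and Ran genes around RANBP2, 12 fell in MM1S and 13 in MM1R, where 23.7% and 27.6% of all genes fell. The others did not pass the test, and none rose. Their median log2 fold changes were −0.49 and −0.42, against 0.04 and 0.0043 over all genes tested. NUP107 fell by 0.91 and 0.71, NUP155 by 0.79 and 0.59, and the Ran-binding protein RANBP1 by 0.77 and 0.78. The highest values within the list were −0.131 in MM1S and −0.0105 in MM1R. RANBP2 itself was at −0.08 and −0.02, so in MM1R a change this small was also seen within the list.

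**Figure D5:**
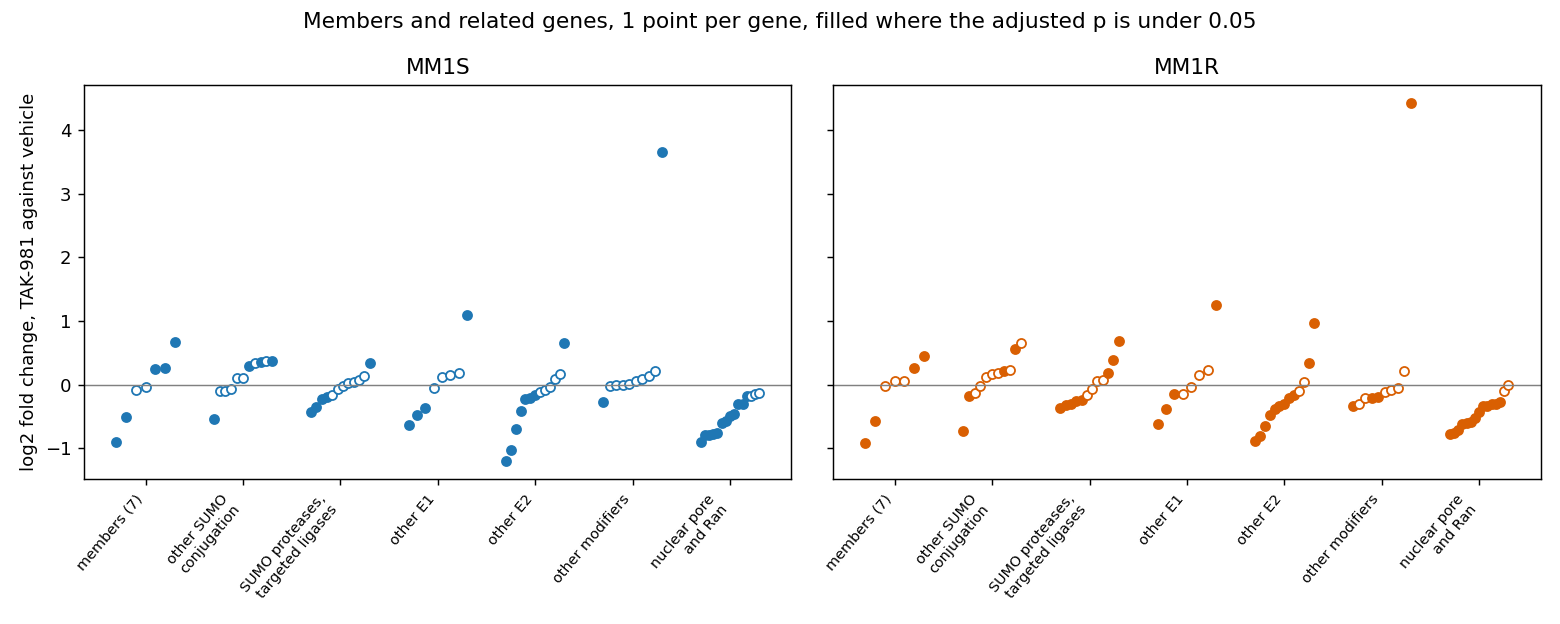
Log2 fold change after TAK-981 against vehicle (vertical axis) of the 7 genes and of 6 lists of related genes (horizontal axis) in MM1S and MM1R, with 1 point per gene, filled where the adjusted p was under 0.05. ISG15 stands highest at 3.65 and 4.42, and the points of the nuclear pore list lie at or below −0.13 in MM1S and −0.01 in MM1R.

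The genes whose log2 CPM followed each member most closely over the 16 libraries were taken from 9646 tested genes with a mean log2 CPM of at least 3. These values describe libraries that share 8 groups, so they mostly restate the group pattern. SAE1 was followed by PCNA, the DNA polymerase clamp (Pearson r = 0.998, Spearman rho = 0.971), and by RCC1 and RCC2 (r = 0.995 for both), with RCC1 being the exchange factor of Ran. For UBA2 they were the spindle checkpoint gene BUB3 (r = 0.985, rho = 0.926), ARL1 (r = 0.98) and PRPS2 (r = 0.979). SUMO3 was most like TMEM255A (r = 0.98, rho = 0.947), PCDH1 (r = 0.978) and ARHGAP6 (r = 0.976). PIAS1 was most like ZFC3H1 (r = 0.968, rho = 0.947), JMJD1C and PHC3 (r = 0.954 for both). The closest genes were less alike for RANBP2 (LRMP, r = 0.94, rho = 0.779, then SETD7 and SKAP2), SUMO2 (PRPSAP2, r = 0.919, rho = 0.815, then SLC37A3 and HSPB11) and PIAS4 (IGSF8, r = 0.893, rho = 0.859, then MRFAP1 and SHKBP1). Between the members, SAE1 and UBA2 had r = 0.94 over the 16 libraries, 0.927 over the 8 of MM1S and 0.994 over the 8 of MM1R.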

How the data were processed

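RNA-seq was run by the study on total RNA depleted of ribosomal RNA. The authors deposited 1 raw read count per gene and library, with no normalization, which was used as deposited. The submitters' processing notes name bcl2fastq 2.18.0.12, STAR 2.6.0, HTSeq 0.6.0, edgeR 3.28.1 and hg19, without parameters. Whether strand was used in counting is not given in the sources used here.

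Genes were filtered with filterByExpr and scaled by TMM. A model with 1 term for each of the 8 groups was fitted to all 16 libraries (8 residual degrees of freedom) with the robust quasi-likelihood fit of edgeR 4.0.16 in R 4.3.3, and 15 contrasts were tested, with p-values adjusted across the tested genes by the Benjamini-Hochberg method (threshold 0.05). Log2 CPM used a prior count of 2. The model was also run on simulated counts in which few genes changed and all groups had the same spread. These settings differ from the data, so that run does not show how the model performs on them. Count ratios were compared by exact permutation within line and Dex status.

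The 7 genes and the lists (81 genes) were chosen with earlier results of these data known. Up to 4 genes per list are named, those with the smallest adjusted p for TAK-981 against vehicle in either line; RANGAP1 and the RGPD copies are named throughout, some genes are not reported here, and the likeness rule takes the 3 genes with the highest Pearson r. Alternatives were RLE scaling, library size only, no filter, a replicate block, DESeq2 1.42.0, a fit of only the groups compared, each library left out, and for ratios each line alone and 0.5 added to each count. Promoter sequences are from RefSeq, GRCh38.p14.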

Additional observations from a re-analysis of the deposited data

Results flagged for a closer look

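3 of the tests of a difference between effects were past the threshold for a member. The Dex effect on SAE1 differed between the lines by 0.43 on the log2 scale (MM1R change minus MM1S change, edgeR adjusted p = 0.00121), and that on UBA2 by 0.33 (adjusted p = 0.0202). The TAK-981 effect on PIAS1 in MM1S differed by 0.39 between cells with and without Dex (adjusted p = 0.0201), where the Dex and TAK groups of that line were also the groups whose replicate libraries differed most (chi-square per degree of freedom of 19.5 and 21.7). The part of that spread in the PIAS1 result was not tested.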

How the results depend on the processing

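The falls of SAE1 and UBA2 and the rise of SUMO3 kept their direction and their call in each comparison with TAK-981 against vehicle, combo against Dex and combo against vehicle, under each alternative run. The alternatives were compared for 50 member changes, namely those called and some that were not called. Of their 524 alternative values, 457 kept direction and side of the threshold, 57 lost a call, 7 gained one and 3 turned in sign. Some printed changes that were not called, among them those of RANBP2 after TAK-981 alone, were not included. The turned values were of changes that were not called: PIAS1 after TAK-981 in MM1S ranged between −0.18 and 0.074, and SAE1 after Dex in MM1R between −0.099 and 0.045, as each library was left out. Where leaving out a library leaves a group with 1, that library was assumed to vary like the other groups.

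The number of members called after TAK-981 in MM1S was 3 with library size only, with DESeq2 and when only the compared groups were fitted, in place of 5. That fit also gave 2 in place of 4 for Dex in MM1S, 1 in place of 5 for combo against TAK-981 in MM1S, 4 in place of 2 between the lines with vehicle, and 0 in place of 1 for the interaction of the drugs in MM1S. With 1 library left out, the counts ran from 2 to 3 for Dex in MM1S, from 3 to 5 for combo against TAK-981 in MM1S, from 1 to 2 for the line difference in Dex response, from 0 to 1 for that in TAK-981 response and from 0 to 2 for the interaction in MM1S. The cause was not tested.

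Within 1 line, the permutation test of the ratios has 36 arrangements and cannot go below 0.0556. The UBA2 to SAE1 difference was 0.44 in MM1S and 0.38 in MM1R, and the SUMO2 to SUMO3 difference −0.30 and −0.43. PIAS1 to PIAS4 was −0.011 in MM1S and 0.19 in MM1R, and ran from 0.016 to 0.16 with 1 library left out.

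The main fit did not treat libraries with the same replicate number as pairs, and whether they are pairs is not settled here. Of 12 correlations of deviations within a line, 2 were over 0.1 (−0.0134 to 0.263). Both belonged to MM1S, with 0.263 for TAK and Dex and 0.139 for TAK and combo. Every MM1S correlation was positive, the lowest being 0.0162, while the highest of MM1R was 0.0821. With the replicate block 1 member, PIAS1 (0.31), was called for the line difference in TAK-981 response, and SUMO2 (−0.22) for Dex in MM1S. Genes called for that line difference were 2061 in place of 592 under the block and 1313 without the filter, and for the interaction in MM1S 3579 under the block and 779 with only the groups compared, in place of 2125. With 1 library left out these counts ran from 200 (without MM1R TAK replicate 1) to 2292 (without MM1S TAK replicate 1) and from 1044 (without MM1S Veh replicate 1) to 3724 (without MM1S TAK replicate 1). Without the filter edgeR called 30 genes for Dex, 9 for combo against TAK-981 and 19 for the interaction in MM1R. Under the block the ratio tests gave an adjusted p of 0.0117, 0.0117 and 0.484. Depth limits SUMO2 most, with 549 to 912 counts per library.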
